A study of Mus musculus with 10 samples.

Results

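Isolated GLIS3 sites of moderate strength are the places in the thyroid genome where a GLIS3 site was called with 20 to 50 tags and no second site was called nearby. Moderate is only a name for this range, which lies above the third quartile of all sites, 19 tags. The sites were selected by their tags and spacing: a site belonged to the set when it held 20 to 50 tags in the Glis3-EGFP GFP ChIP and when no other site had its midpoint within 10000 bp on the same chromosome. Of 18513 GLIS3 sites, 1355 (7.32%) met both limits. They were 36.6% of the 3701 sites of 20 to 50 tags and 16.5% of the 8236 isolated sites. Tags and distances up to 10 kb chose these sites and are therefore described without a test.

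GLIS3 is a Krüppel-like zinc finger transcription factor of thyroid follicular cells, the cells that take up iodide and make thyroid hormone. It binds G-rich GLIS binding sites in promoters and enhancers, and loss of its function causes congenital hypothyroidism. A low-iodine diet (LID) raises TSH, the pituitary hormone that drives the follicular cells. A transcription factor often binds a gene at several neighbouring elements, and the distance between sites does not by itself show what a site does.

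The signal came from thyroid glands of C57BL/6 mice of the GLIS3-EGFP-fusion genotype, which make GLIS3 fused to EGFP, and the control from thyroid glands of wild type C57BL/6 mice, which make no EGFP. Both groups were on an LID for 2 weeks. The paper describes its Glis3-EGFP ChIP-Seq mice as 8 to 10 weeks old and kept on the diet for 2 weeks. It took the GLIS3 ChIP-Seq data from an earlier series, for whose mice it gives no separate age. Chromatin was pulled down in both with a GFP-binding peptide on agarose. Each group had 1 library, and neither the labels nor the methods say how many glands went into a library. There is thus no spread between animals, and no test was made. All intervals below are 95% intervals for counting error only, and they treat the sites as independent. The Glis3-EGFP library had 5336607 tags, of which 4516562 were left after 1 tag was kept per position, and the WT GFP ChIP file had 5171171. The folds correspond to the ratio of 5171171 to 4516562, which is 1.145, and no count after this filter was given in the header for the WT library.

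The isolated moderate sites held a median of 26 tags, with quartiles of 22 and 31 tags, against a median of 13 tags over all sites. Most of them lay at the low end of the range. In all, 958 sites (70.7%) held 20 to 29 tags and 117 (8.63%) held 40 to 50 tags, and the most frequent count was 20 tags, at 176 sites. The fold, which is the ratio of tags to WT GFP ChIP tags scaled by library size, had a median of 26.3 with quartiles of 22.9 and 33.2, against a median of 13.7 over all sites. A fold of at least 20 was reached by 1115 of the 1355 sites (82.3%, exact interval 80.1 to 84.3%), where 23.8% of all 18513 sites reached it. A p-value of at most 0.001 in the authors' caller was reached by 1313 (96.9%), where 86% of all sites reached it. The tag range enters both measures, so these shares follow from the way the sites were chosen.

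The strongest isolated moderate sites had 50 tags (Poisson interval 37.1 to 65.9 tags) and a fold of 57.25, and 8 sites shared these values. In the control all 8 had at most 1 tag, and with 1 control tag the lower bound of their fold was 9.81. In mm9, 2 of them lay on chromosome 12, at chr12:5777551-5777591 and chr12:14290091-14290131. Another 2 lay on chromosome 16, at chr16:95240371-95240431 and chr16:97549031-97549231. The others were at chr5:134564811-134564871, chr7:134708271-134708831, chr8:113225631-113225671 and chrX:166354131-166354171. The same tag count thus came from sites of 40 bp, as at both chromosome 12 sites, and from a site of 560 bp on chromosome 7. Their surroundings also differed. The site on chromosome 5 was 10.1 kb from its nearest neighbour and had 28 other sites within 1 Mb on either side, whereas the site at chr12:14290091-14290131 had 1. The next strongest, both on chromosome 13 with 49 tags and a fold of 56.1, were at chr13:12567571-12567611 and chr13:41554351-41554411. The second of these had a stronger neighbour of 64 tags at a distance of 56 kb, whereas the nearest site to the first held 9 tags.

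The share of sites that stood alone was lower at high than at low tag counts. Among sites of 20 to 24 tags, 603 of 1527 were isolated (39.5%, interval 37.0 to 42.0%). Among those of 35 to 39 tags, 101 of 348 were isolated (29.02%, 24.3 to 34.1%), and among those of 45 to 50 tags, 48 of 184 (26.1%, 19.9 to 33.1%). Outside the range, 49.0% of sites of 9 tags, 27.4% of sites of 51 to 70 tags and 18.1% of sites of 71 to 178 tags were isolated, so that the share did not fall at every step. Within the isolated moderate sites, the number of tags hardly moved with the distance to the nearest site (Spearman's rho -0.04 over 1355 sites of 1 library, a description). The definition limits the range of both, so this value cannot be set against the shares above. Sites 10 to 20 kb from their neighbour and sites 20 to 50 kb away both had a median of 26 tags, and the 30 sites over 500 kb away had a median of 24.5.

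**Figure D1:**
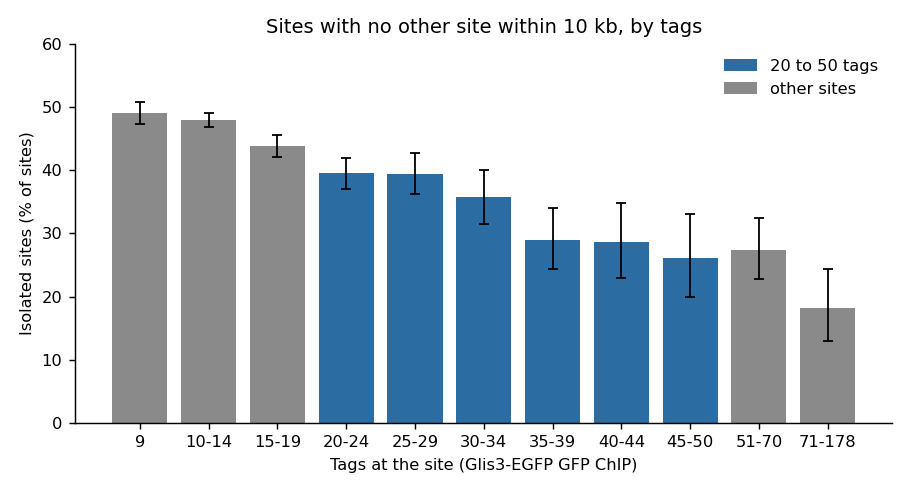
Percent of GLIS3 sites with no other site within 10 kb, by the number of tags at the site, in blue for 20 to 50 tags and in grey for the rest; lines are exact 95% intervals for counting error only. The share is 39.5% at 20 to 24 tags and 26.1% at 45 to 50 tags.

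The distance from an isolated moderate site to its nearest site had a median of 33.6 kb, with quartiles of 17.7 and 75.3 kb. In 404 of the 1355 sites (29.8%) the nearest site was within 20 kb, just past the limit, and in 259 (19.1%) it was over 100 kb away. The neighbour on the other side was much farther, with a median of 128 kb. In 14 sites no other site was found within 1 Mb. The most remote lay at chr14:93742051-93742091, with 34 tags, a fold of 19.46 and 2 tags in the WT GFP ChIP, and its nearest site was 5129 kb away. The next were at chr8:59990471-59990811, with 24 tags and 2983 kb to the nearest site, and at chr6:61473891-61473951, with 25 tags and 2470 kb. Those at chr19:50565031-50565231 and chr15:45015491-45015691 held 31 and 25 tags, at 2061 and 1901 kb. None of these 5 sites was near the upper end of the tag range.

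**Figure D2:**
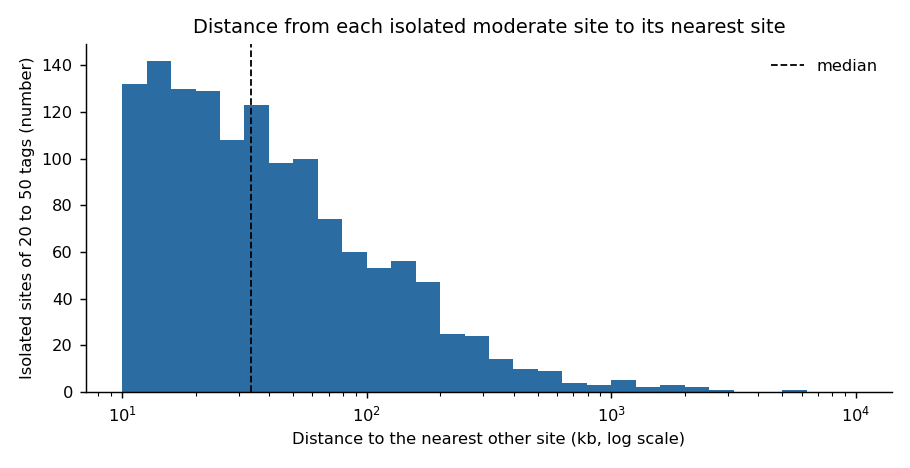
Distance (kb, log scale) from each of the 1355 isolated GLIS3 sites of 20 to 50 tags to the nearest other site of any strength, as a histogram of the number of sites. The dashed line is the median, 33.6 kb, and the right tail ends at 5129 kb.

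Isolation within 10 kb was compatible with a site-rich surrounding at some of the sites. A median of 3 other sites lay within 100 kb of an isolated moderate site and 22 within 1 Mb. Around sites of the same tag range with a neighbour the medians were 6 and 29, a gap to which the definition itself contributes. Even so, 381 of the 1355 sites (28.1%) had 5 or more other sites within 100 kb, and the highest number was 26. That share was below the 47.5% over all sites and the 68.3% of moderate sites with a neighbour. The definition contributes to these gaps as well. Isolated sites under 20 tags had 5 or more in 24.6%, which was 3.48 points (interval 0.929 to 6.14) below the isolated moderate sites. They had no other site within 100 kb in 21.6%, against 19.1% of the isolated moderate sites (difference -2.53 points, -4.77 to -0.146).

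The nearest site was usually a weak one, but so was most of the list, with 77.08% of all sites under 20 tags. It held a median of 13 tags, as around moderate sites with a neighbour and around all sites. It held 20 or more tags in 301 of 1355 isolated moderate sites (22.2%), against 24.72% over all sites. Around moderate sites with a neighbour it did so in 629 of 2346 (26.8%), a difference of -4.60 points (-7.41 to -1.71). The share was 20.5% for isolated sites under 20 tags (difference 1.71 points, -0.637 to 4.188). For isolated sites over 50 tags it was 20.61% (difference 1.603 points, -6.402 to 8.064). The nearest site held over 50 tags in 2.07% of isolated moderate sites and 4.56% of moderate sites with a neighbour. That was a difference of -2.50 points (-3.61 to -1.31). Over all sites this share was 3.597%. It was 2.43% for isolated sites under 20 tags (difference -0.3632 points, -1.109 to 0.6029). For isolated sites over 50 tags it was 2.29% (difference -0.2237 points, -4.497 to 1.535). By this measure the isolated moderate sites were thus not detectably different from the other isolated sites. Among moderate sites with a neighbour, 1150 (49.0%) had it within 1 kb, and the shortest distance between any 2 sites of the list was 210 bp. With sites within 1 kb merged first, which was added after the values were seen for this measure, the first difference was -6.37 points. In 174 isolated moderate sites (12.8%) the nearest site was itself an isolated moderate site. Stretches of such sites with no other site between them had at most 3 members, and 15 stretches had 3. The shortest of these, at chr13:9027391-9063651, spanned 36.3 kb with 21, 33 and 23 tags. That at chr19:55833671-55874851 spanned 41.2 kb with 20, 40 and 22 tags. The longest, at chr2:93375091-94246931, spanned 872 kb with 20, 20 and 21 tags. These stretches were chosen after their values were seen.

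The isolated moderate sites ranged from point-like to broad. The caller reports a site as a whole number of 20 bp windows, and the narrowest were 40 bp. Of the 1355 sites, 410 (30.3%) were 40 bp wide and 251 (18.5%) were 60 bp wide, whereas 352 (26.0%) were 200 bp or wider and 59 (4.35%) were 400 bp or wider. Over all sites the shares were 28.9% at 40 bp, 25.4% at 60 bp, 14.6% at 200 bp or more and 1.71% at 400 bp or more. The widest, at chr13:102944651-102945431, covered 780 bp with 23 tags, and the next, at chr4:120402271-120403031, covered 760 bp with 31 tags. The third, at chr1:75121231-75121911, covered 680 bp with 38 tags. Within the range of 20 to 50 tags, broad sites did not hold more tags. Sites of 40 bp, of 200 to 380 bp and of 400 to 780 bp each had a median of 26 tags, and the correlation of tags and width was close to 0 (Spearman's rho -0.03, a description). The definition limits the tags, so these values do not show how width and tags go together over the whole list.

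Width did not differ detectably between moderate sites that stood alone and those with a neighbour. Sites wider than 60 bp made up 51.2% of the former and 51.1% of the latter, a difference of 0.152 points (-3.19 to 3.49), and for 200 bp or more the shares were 26.0% and 27.4% (difference -1.39 points, -4.31 to 1.59). Over all sites, 45.6% were wider than 60 bp. Against isolated sites under 20 tags, of which 45.1% were wider than 60 bp, the difference was 6.17 points (3.25 to 9.07). This difference turned to -3.28 points (-7.01 to 0.461) when only isolated sites of 15 to 19 tags were used, an alternative added later. For 200 bp or more, the share in all isolated sites under 20 tags was 10.7%, a difference of 15.25 points (12.86 to 17.76). That alternative was not run at this width. The share wider than 60 bp was 35.3% in isolated sites of 9 tags, 54.5% at 15 to 19 tags, 54.2% at 20 to 24 tags and 35.4% at 45 to 50 tags (interval 22.2 to 50.5%). Isolated sites over 50 tags were wider than 60 bp in 34.4%, which is 16.9 points (7.98 to 24.9) below the moderate ones.

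**Figure D3:**
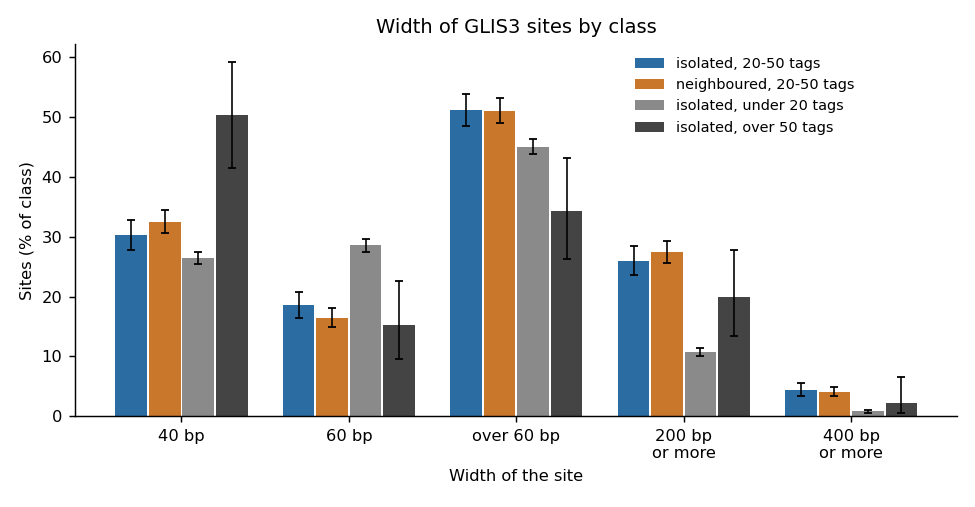
Percent of sites in each class by width: isolated sites of 20 to 50 tags (blue), sites of the same tags with another within 10 kb (orange), isolated sites under 20 tags (light grey) and over 50 tags (dark grey); lines are exact 95% intervals for counting error only, and the widths of 200 and 400 bp or more are part of those over 60 bp. The blue and orange bars are at 51.2% and 51.1% for sites wider than 60 bp, and at 30.3% and 32.5% for sites of 40 bp.

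The WT GFP ChIP shows how many tags the same pull-down gives where no GLIS3-EGFP is present. The number of WT tags was recovered from tags, fold and library sizes, and it came out whole within 2% at 1268 of the 1355 sites. Of these, 1035 (81.6%, interval 79.4 to 83.7%) had 0 or 1 WT tag, which the fold does not tell apart, 171 (13.5%) had 2, and 62 (4.89%, 3.77 to 6.22%) had 3 or more. Over all sites with whole WT tags the shares were close to these, at 81.6%, 13.2% and 5.22%. Moderate sites with a neighbour had 3 or more WT tags in 5.36% (difference -0.468 points, -1.93 to 1.12), and isolated sites under 20 tags in 4.80% (difference 0.0900 points, -1.10 to 1.51). These shares were thus not detectably different by isolation or by tags. The caller listed only sites with a fold of at least 2 over the WT GFP ChIP, so WT tags entered the choice of every site. The shares therefore cannot show whether the background itself was equal. None of the 1268 isolated moderate sites with whole WT tags had over 5. With 0 of 1268 sites at 6 or more, a limit of 3 counts allows a share of up to 0.237%, and 4 of 2221 moderate sites with a neighbour (0.180%) had that many.

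Among the isolated moderate sites whose WT tags came out whole, those with the most were at chr7:130499311-130499431, with 33 tags and a fold of 7.56, and at chr1:17496951-17496991 and chr9:86255271-86255311, each with 26 tags and a fold of 5.95. These 3 sites had 5 WT tags each. The lower bounds of their folds were 2.93, 2.25 and 2.25, and the caller listed only sites with a fold of at least 2. Another 17 sites had 4 WT tags. Of these, the one at chr6:17519031-17519071 held 41 tags and a fold of 11.74, and the one at chr12:5444811-5444871 held 34 tags and a fold of 9.73.

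Among the isolated moderate sites, 3 or more WT tags were found at 26 of 410 sites of 40 bp (6.34%, interval 4.18 to 9.15%) and at 7 of 251 sites of 200 to 380 bp (2.79%, 1.13 to 5.66%). At sites of 400 bp or more it was 0 of 45, which allows a share of up to 6.67% when a count of 0 is given a limit of 3 counts. These intervals overlap. At 87 sites, all at least 100 bp wide, the WT tags did not come out whole. With 1 control tag assumed, the fold at 84 of the 87 corresponded to a whole number of tags, within 0.02 tags. That number was lower than the deposited count, by a median of 7 tags. A fold that is whole with 1 control tag is also whole with more, and such readings were not weighed. The lower number and its size therefore rest on the assumed control tag, and the WT tags at these sites are not known.

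**Figure D4:**
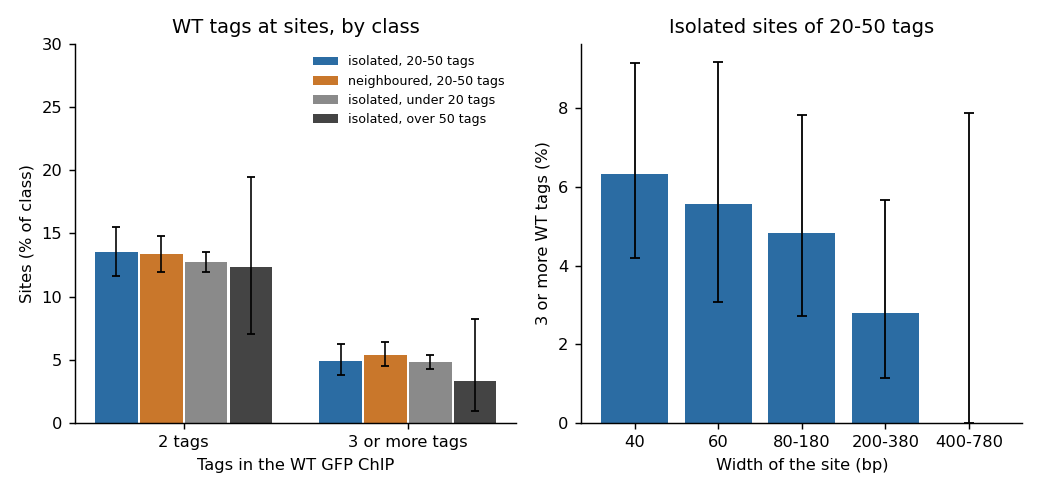
Left, percent of sites in each class with 2 or with 3 or more tags in the WT GFP ChIP, with the colours of the width plot; right, percent of isolated sites of 20 to 50 tags with 3 or more WT tags by width (bp). Lines are exact 95% intervals for counting error only; the classes lie between 3.28% and 5.36% for 3 or more WT tags, and their intervals overlap.

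Isolated moderate sites were found on all 19 autosomes and the X chromosome, and none on the Y or the mitochondrial chromosome, each of which held 1 site in all. Chromosomes 2 and 11 had the most, with 111 each, and chromosome 9 followed with 102. As a share of all sites on the chromosome, chromosome 9 had the highest value among the autosomes (9.33%, interval 7.67 to 11.2%) and chromosomes 8 and 1 the lowest (6.00%, 4.59 to 7.69%, and 6.03%, 4.76 to 7.53%). These are the extremes of 19 chromosomes, and the interval of chromosome 9 overlaps that of chromosome 8 by a small margin and lies above that of chromosome 1. Of the sites of 20 to 50 tags, 30.2% on chromosome 8 to 44.6% on chromosome 13 were isolated. Site density is part of isolation, and across the autosomes the isolated share went down with the number of sites per Mb (Pearson's r -0.38, Spearman's rho -0.37, 19 chromosomes of 1 library, a description), while isolated moderate sites per Mb went up (r 0.86, rho 0.83). The isolated moderate sites are counted among all sites and divided by the same lengths, so this rise is partly built in. Chromosome 9 had 8.85 sites per Mb, above most autosomes, and 42.3% of its moderate sites were isolated (36.0 to 48.8%). Chromosome lengths were taken as the end of the last site.

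**Figure D5:**
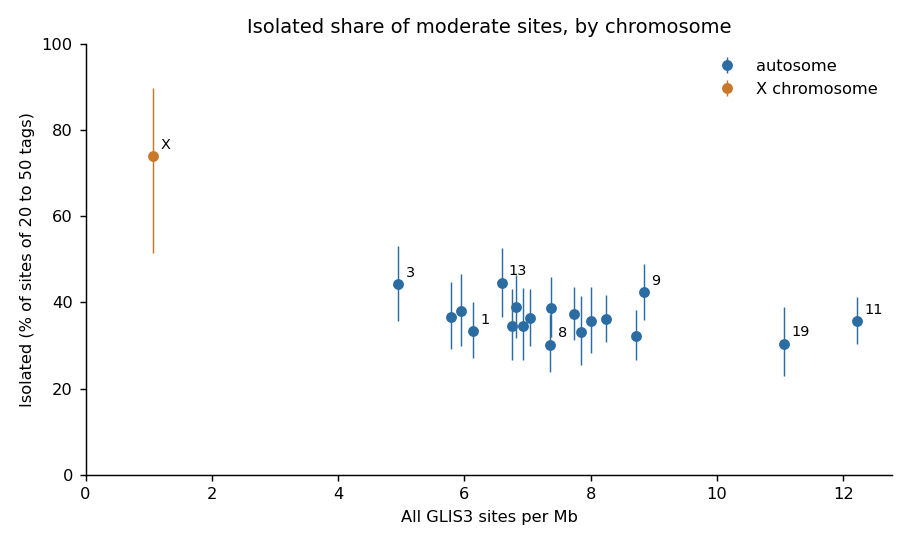
Percent of sites of 20 to 50 tags that were isolated, against the number of all GLIS3 sites per Mb, for 19 autosomes (blue) and the X chromosome (orange); lines are exact 95% intervals for counting error only. Autosomes lie between 30.2% and 44.6%, and the X chromosome, with the fewest sites per Mb, at 73.9%.

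On the X chromosome, where all sites were sparse (1.07 per Mb against 4.95 to 12.2 on autosomes), 17 of 23 moderate sites were isolated (73.9%, interval 51.6 to 89.8%). Their median of 25 tags was within the 24 to 26.5 tags of the autosomes, whereas their median distance to the nearest site, 92.0 kb, was above the autosomes' 28.0 to 46.4 kb. The strongest was the site of 50 tags at chrX:166354131-166354171, the last site of the list on this chromosome, 1243 kb from its nearest site. The next were at chrX:96827671-96827711 with 42 tags, at chrX:136219531-136219711 with 36, at chrX:100937431-100937471 with 35 and at chrX:10941231-10941291 with 32. Of these 5, the site of 35 tags had 3 WT tags and a fold of 13.36, and the other 4 had 0 or 1 WT tag and folds of 36.64 to 57.25. Low site density and isolation cannot be told apart there.

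The limits of the definition cut through a continuous range of tags and distances. At the lower end, 176 isolated sites held 20 tags and 197 held 19 tags. Those of 19 tags at chr1:21208651-21208691, chr1:52290371-52290411 and chr1:71699511-71699751 had a fold of 21.75. At the upper end, 8 isolated sites held 50 tags and 9 held 51, and those of 51 tags at chr1:72229691-72229731, chr1:134009211-134009251 and chr11:118073231-118073371 had a fold of 58.39. In distance, the sites just outside 10 kb were at chr4:124340391-124340431 (22 tags, 10.06 kb), chr4:119527151-119527191 (24 tags, 10.08 kb) and the site of 50 tags on chromosome 5 (10.08 kb). Those just inside were at chr13:45369651-45369831 (23 tags, 9.98 kb), chr11:80690811-80690971 (29 tags, 9.96 kb) and chr14:65275951-65275991 (24 tags, 9.95 kb).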

How the data were processed

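According to the submitters' processing notes, the authors mapped the ChIP-Seq reads to mm9 with Bowtie (no version stated). Per the file headers, SISSRs 1.4 called the sites in 20 bp windows, at 0.05 for its P-value and 10 for its E-value. Each deposited count gives the tags per site in the Glis3-EGFP GFP ChIP, with at least 9 tags and a fold of 2 required. The deposited fold is a ratio to the WT GFP ChIP scaled by library size, and a site without control tags is treated as having 1. The p-value is the caller's own, as deposited. The Methods of the paper describe another call, with HOMER on mm10.

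Midpoints, widths, distances and control tags (tags over fold, times the ratio of library sizes) were computed here. Shares have exact Clopper-Pearson intervals, differences of shares Newcombe intervals, and folds exact conditional binomial bounds. With 1 library per group no test was run, and the depth limits each site to its Poisson error. The steps were tested on simulated lists. The sites and classes, and the rules for naming sites, were chosen with earlier results of these data known. Named sites were the 10 with the most tags, the 5 most remote, the 5 with the most control tags, the 3 widest, the 5 strongest on the X chromosome and those at the edges of the definition. Correlations are descriptions. Alternatives are given at the end.

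The last site on chromosome 1 ends at 197068111, past the end of that chromosome in GRCm38 (195471971), so no gene, sequence or motif was joined to the sites. An mm9 genome was not used here, and neither were the 6 RNA libraries. Tools were Matplotlib 3.10.9, statsmodels 0.14.6, SciPy 1.17.1, NumPy 2.4.6 and pandas 2.3.3 under Python 3.11.15.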

Additional observations from a re-analysis of the deposited data

How the results depend on the processing

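For 9 results, 86 alternative values were computed, of which 76 lay within the counting interval of the reported value or, for the number of sites, within 1.5 times. Isolation at 50 kb left 493 sites, and the difference from other moderate sites in a nearest site of 20 or more tags became -8.16 points. Ranges of 15 to 60 and 25 to 45 tags gave 2805 and 717 sites with a median fold of 20.6 and 32.1, which follows from the tags, and with 15 to 60 tags the excess in sites wider than 60 bp over weaker isolated sites, then those under 15 tags, was 9.92 points. Against isolated sites of 15 to 19 tags the same difference turned to -3.28 points. With a caller p-value of at most 0.001 for every site, 84.0% of isolated moderate sites had 0 or 1 control tag and 1.89% had 3 or more, since that p-value uses the control. Distance from edge to edge, merging within 1 kb, the tolerance for whole control tags and leaving out the X, Y and mitochondrial chromosomes moved none of the results they were run on beyond these limits. Merging within 1 kb did raise the number of isolated moderate sites from 1355 to 1806, which is inside the wide limit of 1.5 times. The number of sites thus depended on how close calls were joined. Added after the values were seen were weighting to equal tags, leaving out sites without whole control tags, and every alternative, 50 kb and 15 to 60 tags included, for the nearest site's tags and for the width against weaker isolated sites. Motifs and genes were not run. With 1 library per group, replicates could not be left out. No paired analysis was possible because each ChIP group has 1 library, and the numbered RNA libraries were not analysed here.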
